A study of Homo sapiens with 12 samples.

Results

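The MYC and MAX network was followed in A375 cells, an established human melanoma cell line carrying a BRAF mutation, through the mRNAs of 8 genes. These were MYC, its obligate partner MAX, and the other proteins that compete with MYC for MAX, namely MXD1, MXD3, MXD4, MXI1, MNT and MGA. The 8 members were the rows of the count table bearing exactly these names, out of 44659 genes, and all 8 had enough reads to be tested in both experiments. RNA-seq libraries came from 2 experiments with 3 libraries per group, and 12 libraries in all. In the first, cells were cultured for 24 h with 500 nM of the BRAF inhibitor vemurafenib together with 500 nM of the MEK inhibitor cobimetinib (MAPKi) or with the solvent DMSO. In the second, cells were cultured for 24 h in a medium without glutamine (Gln-depleted) or in the same kind of medium with 2 mM glutamine (CTRL medium). All 4 groups are of the same parental line, and nothing in the sources used here says whether replicates were separate cultures, so p-values measure the spread between these libraries.

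MYC is a transcription factor that binds DNA only as a dimer with MAX and raises the output of genes for ribosome production, nucleotide synthesis and cell cycle entry. The MXD proteins, MXI1 and MNT also pair with MAX, bind the same E-box motif, and recruit the SIN3 corepressor with its histone deacetylases. MGA, a large scaffold with a DNA-binding domain of its own, pairs with MAX inside a Polycomb-type repressive complex named PRC1.6, while MLX, a relative of MAX, pairs with MXD1, MXD4 and MNT and with the nutrient-sensing factors MLXIP and MLXIPL.

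The E-box that the network binds, CACGTG, reads the same on both strands, and it was searched for in the 300 bases around the start of each gene given by RefSeq (GRCh38.p14). Promoters were found for 7 of the 8 members, all except MYC. The motif was present in 2 of these 7 (28.6%), against 1851 of 22199 promoters of protein-coding genes (8.34%). It lay 238 bases before the start of MXD4 (chr4:2262330-2262359, minus strand) and 193 bases before that of MNT (chr17:2401236-2401265, minus strand). MXD1 and MGA, whose mRNAs were higher with MAPKi as were those of MXD4 and MNT, had no such motif in this window. The 30 bases around each motif are shown because these are the matches among the members, and the capitals mark the E-box.
MXD4: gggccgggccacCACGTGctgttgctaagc
MNT: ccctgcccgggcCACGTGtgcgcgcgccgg
A match describes these letters only, and binding was not measured.

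The libraries held from 31056296 to 40071368 counted reads, with a median of 35748567. Levels are given as CPM, that is reads scaled to a common library size with TMM factors. Targets of both treatments moved. All 11 MAPK pathway targets tested fell with MAPKi (median log2 fold change, log2FC, of -4.07), as did 38.8% of all tested genes. All 9 amino acid response genes tested rose with Gln depletion (median log2FC 2.70), as did 9.43% of all tested genes. Each list also moved in the other experiment. With MAPKi 8 of the 9 amino acid response genes tested were lower and 1 higher (median log2FC -1.13). With Gln depletion 5 of 12 MAPK pathway targets were higher and 0 lower (median log2FC 0.85). With a term for the replicate number 11 were higher, beside 25.1% of all tested genes. Melanoma markers were abundant, with a summed level of 10 genes from 1704 to 1853 CPM with DMSO, from 10937 to 13707 CPM with MAPKi, from 1249.5 to 1554 CPM in CTRL medium and from 854 to 985 CPM in Gln-depleted cells. With MAPKi 9 of the 10 were higher and S100B was lower, beside 39.3% and 38.8% of all tested genes. Among 8 markers of other cell types, CD68, a lysosomal protein used as a marker of macrophages, was the only gene tested. Its level was 401 ± 6.94 CPM (SD, n = 3) with MAPKi and 60.0 ± 4.85 CPM with DMSO. The other 7, with KRT5 and CD3E at 0 in every library, summed to 0.675 CPM at most. Of these 7, PTPRC had 4, 6 and 3 reads in MAPKi replicates 1 to 3. It had 17, 15 and 14 reads in DMSO replicates 1 to 3. The part of CD68-bearing cells or of a shift in melanocyte genes in the results that follow was not tested, and in bulk samples fewer cells carrying an mRNA and less mRNA per cell cannot be told apart.

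MYC lies on chromosome 8 from 127735434 to 127742951 (GRCh38, plus strand). Its level was 46.7, 49.6 and 43.1 CPM in DMSO replicates 1 to 3, and 2.65, 3.29 and 2.48 CPM in MAPKi replicates 1 to 3. The groups were far apart, the highest MAPKi library holding 103 reads and the lowest DMSO library 1523. The mean fell 16.6-fold, from 46.4 ± 3.25 CPM (SD, n = 3) to 2.80 ± 0.425 CPM, with a log2FC of -4.06 (SE 0.10, adjusted p = 3.0e-09, edgeR's quasi-likelihood test, Benjamini-Hochberg adjusted as are all values below). Only 69 of the 12593 genes tested had a lower log2FC.

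The MAX partners that act as repressors did not move together. MXD4, a small MXD protein linked to growth arrest and differentiation, was measured at 9.93, 8.91 and 11.8 CPM with DMSO and at 51.6, 46.8 and 48.7 CPM with MAPKi. Every MAPKi library was above every DMSO library, and the mean rose 4.80-fold (log2FC 2.26, SE 0.09, adjusted p = 4.3e-08). A higher log2FC was found for 318 genes. MXD1, an MXD protein induced during differentiation, went from 11.3, 10.2 and 9.46 CPM with DMSO to 15.8, 17.1 and 16.8 CPM with MAPKi. The groups again did not overlap, with a smaller rise (log2FC 0.68, SE 0.08, adjusted p = 5.2e-05). MXD3, the MXD member expressed in proliferating cells, moved the opposite way. Its level was 30.1, 31.8 and 27.2 CPM with DMSO against 12.1, 14.1 and 12.2 CPM with MAPKi. It therefore fell 2.32-fold (log2FC -1.21, SE 0.08, adjusted p = 9.8e-07). Exons of RAB24 and PRELID1 cover 43.7% of the exon bases of MXD3, so that its reads may be shared with these genes.

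MNT, the broadly expressed antagonist of MYC, was at 36.2, 36.8 and 38.1 CPM with DMSO and at 52.0, 50.2 and 54.7 CPM with MAPKi. It was higher in every MAPKi library (log2FC 0.50, SE 0.05, adjusted p = 9.7e-06). For MGA, the values were 87.6, 92.7 and 98.7 CPM with DMSO and 113, 109 and 112 CPM with MAPKi. The groups stood apart by a small margin (log2FC 0.26, SE 0.05, adjusted p = 0.0010), and the call was lost in a fit of all 12 libraries (adjusted p = 0.18). MAX and MXI1, a member of the MXD family whose gene has alternative starts, overlapped between groups. MAX was between 56.4 and 67.9 CPM over the 6 libraries (log2FC -0.09, 95% interval -0.22 to 0.03, adjusted p = 0.21), and MXI1 was between 63.6 and 70.8 CPM (log2FC 0.06, 95% interval -0.02 to 0.14, adjusted p = 0.18). MAX passed the test without DMSO replicate 3 (log2FC -0.17, adjusted p = 0.0086), and MXI1 with upper-quartile scaling (log2FC 0.13, adjusted p = 0.018).

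In all, 6 of the 8 members changed with MAPKi, while 78.1% of all tested genes did, so the share of members that changed was close to that of any gene. Of these, 4 were higher (39.3% of tested genes) and 2 were lower (38.8%). A limit of 1.5-fold, tested as a threshold in the model, was passed by MYC and MXD3 among downregulated mRNAs (18.4% of tested genes) and by MXD4 among upregulated mRNAs (17.2%). MXD1 did not pass it (adjusted p = 0.12).

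**Figure D1:**
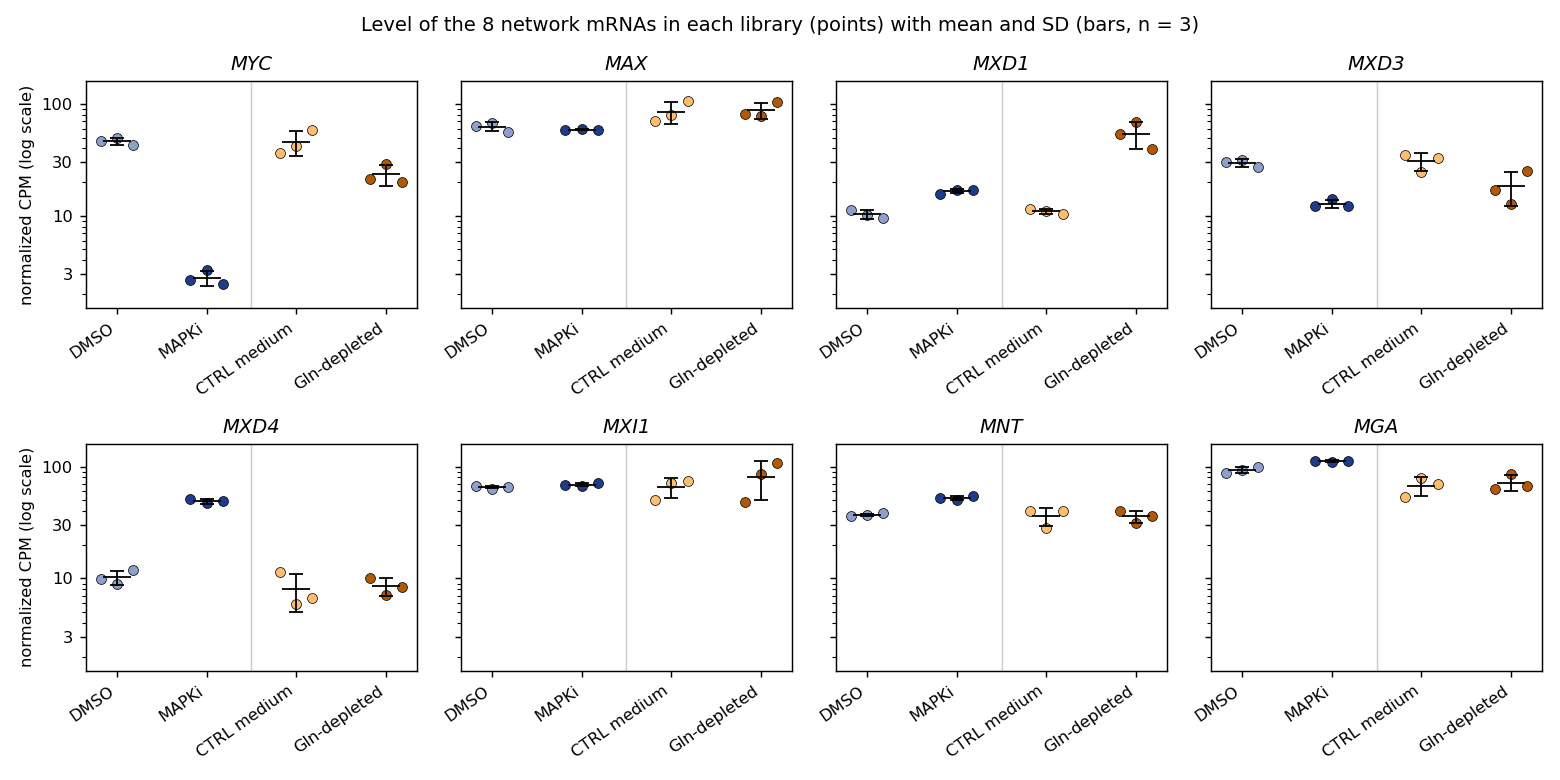
Normalized counts in CPM (log scale) of the 8 network mRNAs, with a point for each library and bars for the mean and SD of 3 libraries per group. MYC drops from 46.4 to 2.80 CPM with MAPKi and MXD4 rises to 49.1 CPM, whereas in Gln-depleted cells MXD1 rises to 54.0 CPM and MXD4 lies within the range of its control libraries.

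Gln depletion moved fewer members, and another MXD gene. MXD1 was measured at 11.6, 11.0 and 10.5 CPM in CTRL medium and at 54.1, 68.6 and 39.4 CPM in Gln-depleted replicates 1 to 3. Every Gln-depleted library was far above every CTRL medium library, though the Gln-depleted libraries were spread among themselves. The mean rose 4.90-fold, from 11.0 ± 0.571 CPM (SD, n = 3) to 54.0 ± 14.6 CPM (log2FC 2.29, SE 0.24, adjusted p = 0.0015), and 209 of 12512 genes had a higher log2FC. MYC was at 36.0, 42.1 and 58.5 CPM in CTRL medium and at 21.1, 29.1 and 20.2 CPM in Gln-depleted cells. The groups did not overlap, but both were spread widely, with means of 45.5 ± 11.6 and 23.5 ± 4.93 CPM. MYC fell by 0.96 on the log2 scale (SE 0.25, adjusted p = 0.035), a 1.94-fold drop. This call was lost when Gln-depleted replicate 1, 2 or 3 or CTRL medium replicate 2 or 3 was left out (adjusted p from 0.059 to 0.12), and kept without CTRL medium replicate 1 (adjusted p = 0.024). A term for the replicate number, which pairs libraries in this experiment, gave a log2FC of -0.94 and an adjusted p of 0.0061. Within experimental batch 2 of the labels, which holds replicates 2 and 3, the adjusted p was 0.020.

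MXD3 was at 34.8, 24.4 and 32.7 CPM in CTRL medium and at 17.1, 12.9 and 25.0 CPM in Gln-depleted cells. Gln-depleted replicate 3 exceeded CTRL medium replicate 2, and the difference did not pass the test (log2FC -0.74, SE 0.28, adjusted p = 0.10). Each numbered pair had the lower value in the Gln-depleted library, and with the replicate term MXD3 was called lower (log2FC -0.78, adjusted p = 0.0066). MXD4 gave 11.4, 5.94 and 6.70 CPM in CTRL medium and 10.2, 7.11 and 8.30 CPM in Gln-depleted cells, with overlapping groups (log2FC 0.09, 95% interval -0.51 to 0.69, adjusted p = 0.86). The remaining 4 members also overlapped, with levels over the 6 libraries from 69.7 to 106 CPM for MAX, 48.6 to 109 CPM for MXI1, 28.3 to 40.3 CPM for MNT and 53.5 to 85.7 CPM for MGA. Their log2FC were 0.05 for MAX (95% interval -0.39 to 0.49), 0.31 for MXI1 (-0.29 to 0.91), -0.0046 for MNT (-0.42 to 0.41) and 0.09 for MGA (-0.34 to 0.52). The adjusted p was 0.51 or higher for each of these 4. The intervals are normal approximations computed from the SE of the fit without the replicate term. That SE was 0.22 for MAX, 0.31 for MXI1, 0.21 for MNT and 0.22 for MGA. With the replicate term the SE was smaller, 0.12 for MAX, 0.14 for MXI1, 0.12 for MNT and 0.12 for MGA, and none of these 4 was called (adjusted p of 0.17 or higher). The interval of MGA given above holds the log2FC it showed with MAPKi. That of MNT ends below its own, but edgeR's test of the difference between the experiments did not pass for MNT (adjusted p = 0.052).

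Thus 2 of the 8 members changed in Gln-depleted cells, where 17.7% of all tested genes did, 1 higher (9.43% of tested genes) and 1 lower (8.29%). With the replicate term, which takes the pairing into account, 3 of the 8 changed, MXD1 higher and MYC and MXD3 lower, where 49.0% of all tested genes did (25.1% higher and 23.8% lower). MXD1 was the 1 member beyond the 1.5-fold limit, among upregulated mRNAs (3.47% of tested genes), and MYC was not among downregulated mRNAs (2.09%). When libraries were scaled to total counts alone, the median log2FC of all genes shifted to -0.16, with 850 genes higher and 1652 lower in place of 1180 and 1037.

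**Figure D2:**
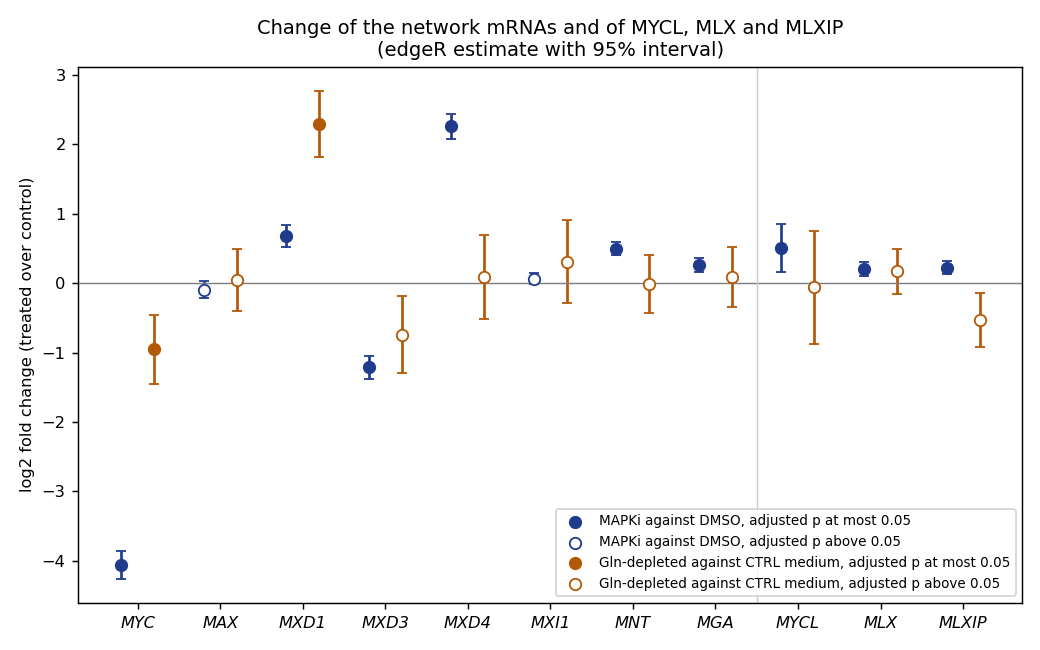
The log2 fold change from edgeR of each network mRNA, and of MYCL, MLX and MLXIP to the right of the line. The 95% intervals are normal approximations computed from the SE of the fits without the replicate term. Filled points passed an adjusted p of 0.05, and the largest changes are those of MYC (-4.06) and MXD4 (2.26) with MAPKi and of MXD1 (2.29) with Gln depletion.

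Whether a member moved differently in the 2 experiments was tested with edgeR in a model of the 12 libraries. The test passed for 3 of the 8 members, against 40.5% of 12627 genes tested. MYC fell further with MAPKi than with Gln depletion (difference of log2FC -3.06, SE 0.28, adjusted p = 1.0e-05). The rise of MXD4 was larger with MAPKi (difference 2.22, SE 0.33, adjusted p = 0.00027), and that of MXD1 was larger with Gln depletion (difference -1.57, SE 0.25, adjusted p = 0.00044). The difference of MNT was 0.55 (SE 0.21, adjusted p = 0.052) and passed under 7 of 18 alternatives, among them the replicate term (adjusted p = 0.0025). MXD3, which like MYC was lower in both experiments with the replicate term, differed by -0.43 (SE 0.31, adjusted p = 0.29). Each experiment is a sequencing batch of its own according to the labels, so that experiment and batch cannot be told apart in this contrast.

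The paralogs of MYC were scarce. MYCN had 1 read in 1 library and 0 reads in the other 11, which does not exceed the limit of 3 reads that a count of 0 allows. MYCL, a MYC relative with its own MAX dimers, was between 1.30 and 1.75 CPM with DMSO and between 2.18 and 2.33 CPM with MAPKi (log2FC 0.51, SE 0.18, adjusted p = 0.025). The call was lost without MAPKi replicate 1 or 3 or DMSO replicate 2 (adjusted p from 0.054 to 0.076) and in a fit of all 12 libraries (adjusted p = 0.19). With 46 to 86 reads per library in that experiment, its gain was small beside the loss of MYC. In Gln-depleted cells the log2FC of MYCL was -0.06 (SE 0.41, adjusted p = 0.93).

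On the MLX side, MLX was higher with MAPKi, 102 ± 5.47 against 87.9 ± 2.60 CPM (log2FC 0.21, SE 0.05, adjusted p = 0.0039), and so was MLXIP, 55.7 ± 1.68 against 47.7 ± 2.40 CPM (log2FC 0.22, SE 0.05, adjusted p = 0.0023). Both calls were lost in a fit of all 12 libraries (adjusted p of 0.11 and 0.19). MLXIP, also called MondoA, senses glucose-derived metabolites. It was at 47.5, 40.6 and 47.8 CPM in CTRL medium and at 33.8, 25.6 and 34.4 CPM in Gln-depleted cells. The groups did not overlap, the log2FC was -0.53 (SE 0.20, adjusted p = 0.097), and with the replicate term MLXIP was called lower (log2FC -0.54, adjusted p = 0.0065). The change of MLXIP differed between the experiments by 0.80 (SE 0.18, adjusted p = 0.0046). A further copy of MLXIP in the table held 593 and 622 reads in CTRL medium replicates 1 and 2 and at most 184 in any other library. MLX in Gln-depleted cells had a log2FC of 0.17 (SE 0.17, adjusted p = 0.50), and MLXIPL had at most 4 reads in any library.

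To compare levels between members, the CPM of each was divided by the kilobases covered by exons of any of its annotated transcripts (RPKM). This length exceeds that of the longest transcript, for MYC 6109 against 3721 bases and for MXD3 4743 against 2279. The places of members with close levels therefore depend on the length used, and the order was not computed with another. The reads of MXD3 may also be shared with overlapping genes. With DMSO the order was MXI1 (11.1 ± 0.281 RPKM, SD, n = 3), MAX (10.0 ± 0.933), MYC (7.60 ± 0.532), MXD3 (6.26 ± 0.482), MGA (4.63 ± 0.276), MNT (4.25 ± 0.113), MXD1 (1.63 ± 0.150) and MXD4 (1.49 ± 0.216). The pairs MXI1 and MAX, MGA and MNT, and MXD1 and MXD4 overlapped between libraries. By this length, with MAPKi MXD4 moved from the last place to the third (7.14 ± 0.355 RPKM), and MYC from the third place to the last (0.459 ± 0.0696 RPKM). In that group only MXD3 and MXD1 overlapped with each other among neighbours. In CTRL medium MYC was again in the third place (7.45 ± 1.90 RPKM) and MXD1 in the seventh (1.74 ± 0.0899 RPKM). In Gln-depleted cells MXD1 was in the third place (8.51 ± 2.30 RPKM), above every library of MNT (4.14 ± 0.511 RPKM), while MYC (3.84 ± 0.807 RPKM) overlapped with MXD3 and MGA. MAX was first or second in each of the 4 groups.

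MYC made up 20.6% ± 1.22 (SD, n = 3) of the summed RPKM of the 7 MAX partners with DMSO and 20.9% ± 3.04 in CTRL medium. The share was 1.20%, 1.52% and 1.11% in MAPKi replicates 1 to 3, and 10.4%, 11.5% and 7.89% in Gln-depleted replicates 1 to 3. Each treated library was below each of its controls (exact permutation test, two-sided, p = 0.10 in each experiment, the smallest value that 20 relabellings can give). The share of MXD4 went from 4.03% ± 0.629 to 19.8% ± 0.868 with MAPKi, and that of MXD1 from 4.97% ± 0.746 to 22.2% ± 6.35 with Gln depletion. These are shares of mRNA, and protein was not measured.

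**Figure D3:**
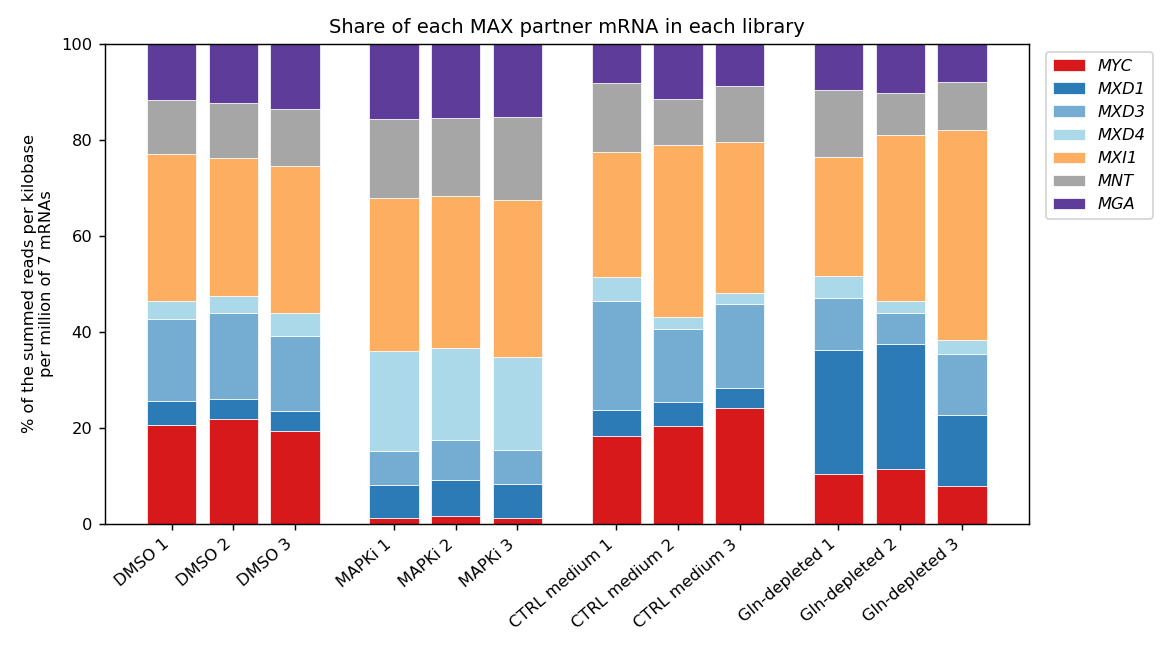
Share of each MAX partner in the summed length-scaled level (RPKM) of the 7 partners, as a stacked bar for each of the 12 libraries. The MYC segment, 20.6% with DMSO and 20.9% in CTRL medium, shrinks to 1.27% with MAPKi and to 9.93% in Gln-depleted cells. The segments that widen most are MXD4 with MAPKi and MXD1 in Gln-depleted cells. With MAPKi those of MNT (from 11.5% to 16.7%), MGA, MXD1 and MXI1 also widen. In Gln-depleted cells the mean share of MXI1 is higher as well, with overlapping libraries.

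The cofactors that the network recruits were examined next. All 12 coactivators of MYC changed with MAPKi, 5 higher and 7 lower (median log2FC -0.43, against 0.0090 for all tested genes), where 39.3% of all tested genes were higher and 38.8% lower. RUVBL1 and RUVBL2, paired ATPases of the TIP60 and INO80 complexes, fell with log2FC of -1.45 (SE 0.05, adjusted p = 1.0e-08) and -1.06 (SE 0.04, adjusted p = 4.3e-08). ACTL6A, an actin-related subunit of the same complexes, fell by 1.08 on the log2 scale (SE 0.05, adjusted p = 9.1e-08). The acetyltransferases went both ways. KAT2A, also called GCN5, fell from 26.4 ± 1.93 to 13.6 ± 0.0938 CPM (log2FC -0.95, SE 0.07, adjusted p = 1.0e-06), whereas CREBBP reached 210 ± 3.50 CPM against 113 ± 2.56 CPM (log2FC 0.89, SE 0.04, adjusted p = 6.7e-08), EP300 had a log2FC of 0.47 (adjusted p = 1.7e-05) and KAT5, the catalytic subunit of TIP60, one of 0.43 (adjusted p = 2.9e-05). The call of EP300 was lost in a fit of all 12 libraries (adjusted p = 0.087). With Gln depletion 0 of the 12 passed edgeR's test, with 1 higher and 2 lower at an unadjusted p under 0.05, and DESeq2 called 1 lower. With the replicate term 2 were higher (CREBBP and TRRAP) and 2 lower (RUVBL1 and RUVBL2), beside 25.1% and 23.8% of all tested genes.

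Of the 10 SIN3 corepressor genes, through which the MXD proteins and MNT act, 2 were higher and 3 lower with MAPKi (median log2FC near 0), so that 5 of 10 changed where 78.1% of all tested genes did. The paired deacetylases went opposite ways: HDAC1 rose from 154 ± 5.08 to 254 ± 13.6 CPM (log2FC 0.72, SE 0.05, adjusted p = 1.5e-06), and HDAC2 fell from 133 ± 5.31 to 71.8 ± 4.50 CPM (log2FC -0.89, SE 0.06, adjusted p = 5.2e-07). SAP30, a small SIN3 subunit, had a log2FC of -1.46 (SE 0.10, adjusted p = 1.4e-06), SIN3A, the scaffold, one of -0.32 (adjusted p = 0.00016), and ARID4B one of 0.36 (adjusted p = 0.00029). In a fit of all 12 libraries SIN3A and ARID4B were not called (adjusted p of 0.099 and 0.40). With Gln depletion 0 of the 10 passed edgeR's test (1 higher at an unadjusted p under 0.05, and 1 higher by DESeq2). With the replicate term 3 were higher and 3 lower, beside 25.1% and 23.8% of all tested genes.

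In the PRC1.6 complex that MGA holds together, 10 of 11 genes could be tested, RING1 having almost no reads and 5 further copies in the table. RYBP was tested on 18 to 80 reads per library, while a further copy of it held 283 to 1436, so that its value rests on a small part of its reads. With MAPKi 7 of the 10 were lower and 1 higher (median log2FC -0.62, opposite in sign to MGA itself), beside 38.8% and 39.3% of all tested genes. TFDP1, the partner of E2F6, fell by 1.16 on the log2 scale (SE 0.05, adjusted p = 3.6e-08), CBX3, a heterochromatin protein, by 1.06 (SE 0.05, adjusted p = 8.0e-08) and PCGF6, which defines the complex, by 1.02 (SE 0.09, adjusted p = 7.1e-06). L3MBTL2 was the 1 gene that rose (log2FC 0.30, SE 0.06, adjusted p = 0.0015), a call lost in a fit of all 12 libraries (adjusted p = 0.16). With Gln depletion TFDP1 was the 1 gene called, and it was lower (log2FC -0.81, SE 0.23, adjusted p = 0.042), beside 8.29% of all tested genes. This call was lost without Gln-depleted replicate 1 or 2 or CTRL medium replicate 2 or 3 (adjusted p from 0.072 to 0.15). It was kept with the replicate term (log2FC -0.81, adjusted p = 0.0015). With that term 2 of the 10 genes were higher and 2 lower, beside 25.1% and 23.8% of all tested genes.

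Of 12 genes that set the stability of the MYC protein, 9 were lower and 2 higher with MAPKi (median log2FC -0.25), beside 38.8% and 39.3% of all tested genes. The list mixes genes that protect MYC with genes that promote its degradation, so these counts give no direction for its stability. SKP2, a ubiquitin ligase subunit and coactivator of MYC, fell by 1.58 on the log2 scale (SE 0.05, adjusted p = 1.2e-08). CIP2A, which shields MYC from dephosphorylation, fell by 1.45 (SE 0.05, adjusted p = 1.3e-08), and AURKA, a kinase that protects MYC proteins from degradation, by 1.09 (SE 0.05, adjusted p = 1.3e-07). FBXW7 (log2FC -0.29, adjusted p = 0.0021), STUB1 (log2FC -0.25, adjusted p = 0.0010) and PPP2R5A (log2FC -0.24, adjusted p = 0.0013) were lower as well. FBXO32, a ubiquitin ligase subunit of muscle atrophy, rose from 74.9 ± 9.78 to 167 ± 5.90 CPM (log2FC 1.16, SE 0.08, adjusted p = 1.5e-06). GSK3B, the kinase that marks MYC for degradation, had a log2FC of 0.52 (adjusted p = 3.5e-06). With Gln depletion 3 of the 12 were higher and 1 lower, beside 9.43% and 8.29% of all tested genes. With the replicate term 4 were higher and 5 lower, beside 25.1% and 23.8% of all tested genes. HUWE1, a large ubiquitin ligase, rose from 1075 ± 311 to 2280.5 ± 373 CPM (log2FC 1.09, SE 0.25, adjusted p = 0.021), whereas with MAPKi it fell (log2FC -0.50, adjusted p = 1.2e-05). GSK3B had a log2FC of 0.75 (SE 0.20, adjusted p = 0.034), the deubiquitinase USP36 one of 0.66 (SE 0.18, adjusted p = 0.035) and SKP2 one of -0.94 (SE 0.19, adjusted p = 0.015). Each of these 4 calls was lost when some single libraries were left out. Those of HUWE1 and SKP2 were lost without Gln-depleted replicate 2 or CTRL medium replicate 2 or 3 (adjusted p up to 0.089 and 0.073). That of GSK3B was kept only without Gln-depleted replicate 1 (otherwise up to 0.13), and that of USP36 was lost whichever library was left out (adjusted p from 0.052 to 0.12). With all 6 libraries and the replicate term, all 4 were called. The adjusted p was then 0.00097 for HUWE1, 0.0012 for SKP2, 0.0017 for GSK3B and 0.0041 for USP36.

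Genes acting on MYC transcription or on its mRNA were examined as well. The 3 reported here were lower with MAPKi, as were 38.8% of all tested genes. FUBP1, which binds a DNA element upstream of MYC, had a log2FC of -0.88 (SE 0.05, adjusted p = 4.8e-07) and CNBP one of -0.71 (SE 0.04, adjusted p = 5.8e-07). IGF2BP1, which stabilises the MYC mRNA, had one of -0.58 (SE 0.04, adjusted p = 2.4e-06). With Gln depletion CNBP was higher with the replicate term (log2FC 0.58, adjusted p = 0.0056) and did not pass without it (log2FC 0.59, SE 0.19, adjusted p = 0.062).

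**Figure D4:**
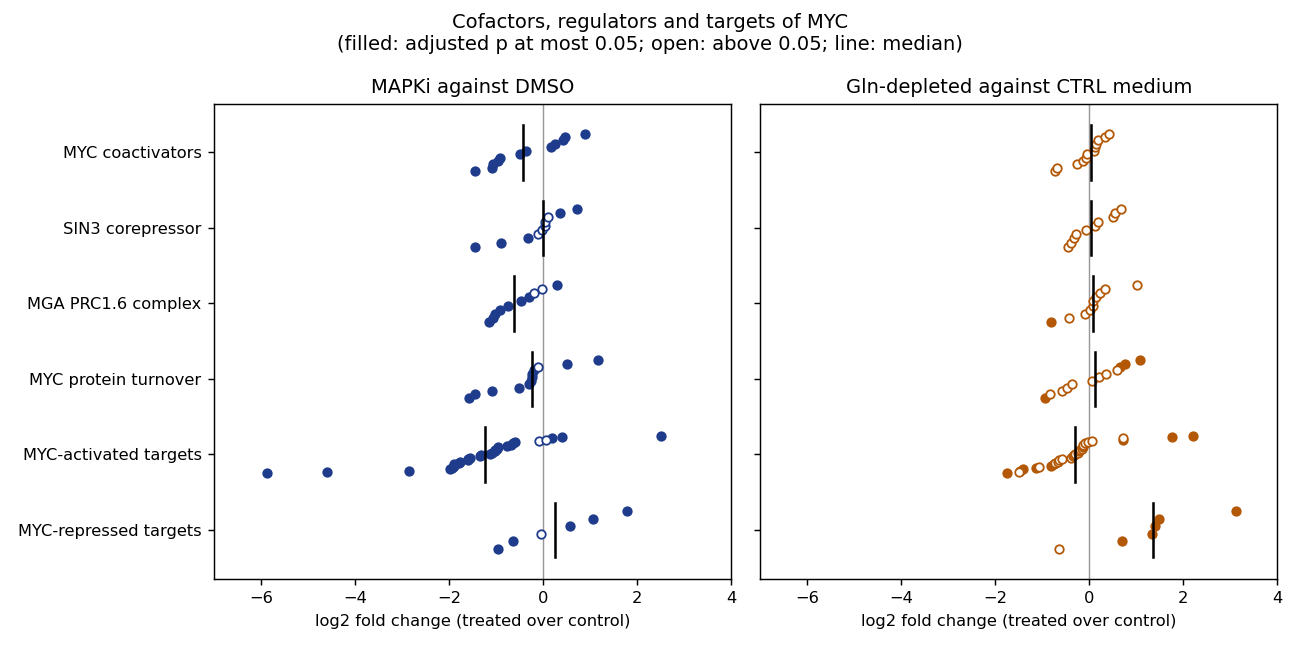
The log2 fold change of every tested gene of 6 lists in the MAPKi experiment (left) and the Gln depletion experiment (right), filled where the adjusted p was at most 0.05, with a line at the median of each list. CCND2, which had 0 reads in CTRL medium, is not drawn. The activated targets lie mostly below 0 with MAPKi (median -1.23) and around -0.30 with Gln depletion, where 5 of the 6 repressed targets lie above 0.

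Genes known to be activated by MYC were lower with MAPKi. Of 33 such genes 30 could be tested, and 25 were lower and 3 higher (38.8% and 39.3% of all tested genes), with a median log2FC of -1.23, and 23 were downregulated beyond the 1.5-fold limit and 1 upregulated. BOP1, FBL and LDHA have further copies in the table, and without them 22 of 27 were lower and 3 higher (median log2FC -1.08). CDC25A, a phosphatase that drives the cell cycle, fell from 54.1 ± 6.71 to 7.46 ± 0.472 CPM (log2FC -2.86, SE 0.10, adjusted p = 1.6e-08). TERT, the catalytic subunit of telomerase, had 63 to 86 reads per library with DMSO and 1 to 5 with MAPKi (log2FC -4.61, SE 0.42, adjusted p = 7.6e-06). FBL, the nucleolar RNA methyltransferase, was erratic, with 1009, 86 and 27 reads with DMSO and 3, 5 and 12 with MAPKi (log2FC -5.88, SE 1.49, adjusted p = 0.0055, and 0.074 in a fit of all 12 libraries). LDHA and EIF4A1, genes that every cell uses, had few or 0 reads here. FBL, another such gene, ranged from 3 to 4732 reads over the 12 libraries. The values of these 3 genes cannot be taken as expression levels. Among the 3 that rose, SLC7A5, the large neutral amino acid transporter, went from 528 ± 63.5 to 3020.4 ± 411 CPM (log2FC 2.52, SE 0.11, adjusted p = 7.0e-08). UBTF, a factor of ribosomal DNA transcription, had a log2FC of 0.40 (adjusted p = 1.7e-05) and TFRC, the transferrin receptor, one of 0.19 (adjusted p = 0.016). Neither was called in a fit of all 12 libraries (adjusted p of 0.12 and 0.36), and TFRC was lost without MAPKi replicate 2 or 3 or DMSO replicate 3 (adjusted p from 0.051 to 0.069).

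With Gln depletion 6 of 31 tested activated targets were lower and 4 higher (median log2FC -0.30, against 0.0014 for all tested genes), beside 8.29% and 9.43% of all tested genes. With the replicate term 13 were lower and 5 higher, beside 23.8% and 25.1% of all tested genes. TERT fell from 3.38 ± 0.182 to 1.00 ± 0.361 CPM (log2FC -1.75, SE 0.37, adjusted p = 0.016), HSPE1, a mitochondrial chaperonin, had a log2FC of -1.46 (SE 0.36, adjusted p = 0.028) and BOP1, a ribosome assembly factor, one of -1.41 (SE 0.25, adjusted p = 0.0093). The call of TERT was lost without Gln-depleted replicate 2 or CTRL medium replicate 2 (adjusted p up to 0.057), and that of HSPE1 without either of these or CTRL medium replicate 3 (adjusted p up to 0.10). The genes that rose included both amino acid transporters of the list. SLC7A5 reached 4460.4 ± 202 CPM from 967 ± 153 CPM (log2FC 2.21, SE 0.19, adjusted p = 0.00088), and SLC1A5, a glutamine transporter, 1071 ± 105 from 317 ± 64.5 CPM (log2FC 1.76, SE 0.21, adjusted p = 0.0023). SLC1A5 had gone the opposite way with MAPKi (log2FC -1.93, adjusted p = 8.4e-08), a difference of -3.64 (SE 0.23, adjusted p = 5.8e-07). CCND2, a cyclin, had 445, 236 and 41 reads in Gln-depleted replicates 1 to 3 and 0 reads in all 3 CTRL medium libraries. Its mean was at least 86.2-fold higher, computed against 3 reads in each CTRL medium library (0.078 CPM). This bound is for the mean and not for each library, since the levels were 12.6, 6.31 and 1.37 CPM in Gln-depleted replicates 1 to 3.

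Of 6 tested genes known to be repressed by MYC, 5 were higher with Gln depletion (median log2FC 1.36), beside 9.43% of all tested genes, while GAS1 was called lower with the replicate term (log2FC -0.70, adjusted p = 0.020). GADD45A, a stress sensor, rose from 21.4 ± 1.10 to 187 ± 79.3 CPM (log2FC 3.13, SE 0.33, adjusted p = 0.0014). CDKN1A, the cyclin-dependent kinase inhibitor p21, had a log2FC of 1.47 (SE 0.26, adjusted p = 0.0094), and THBS1, a secreted matrix protein, one of 1.39 (SE 0.25, adjusted p = 0.0098). With MAPKi 3 of the 6 were higher and 2 lower, beside 39.3% and 38.8% of all tested genes. Those higher were GAS1 (log2FC 1.79, SE 0.09, adjusted p = 1.1e-07), CDKN1A (log2FC 1.05, SE 0.05, adjusted p = 8.1e-08) and CDKN1B (log2FC 0.57, SE 0.06, adjusted p = 2.8e-05). GADD45A (log2FC -0.96, SE 0.10, adjusted p = 2.1e-05) and THBS1 (log2FC -0.64, SE 0.07, adjusted p = 1.7e-05) were lower. The list therefore held genes moving both ways with MAPKi, where MYC had fallen most.

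**Figure D5:**
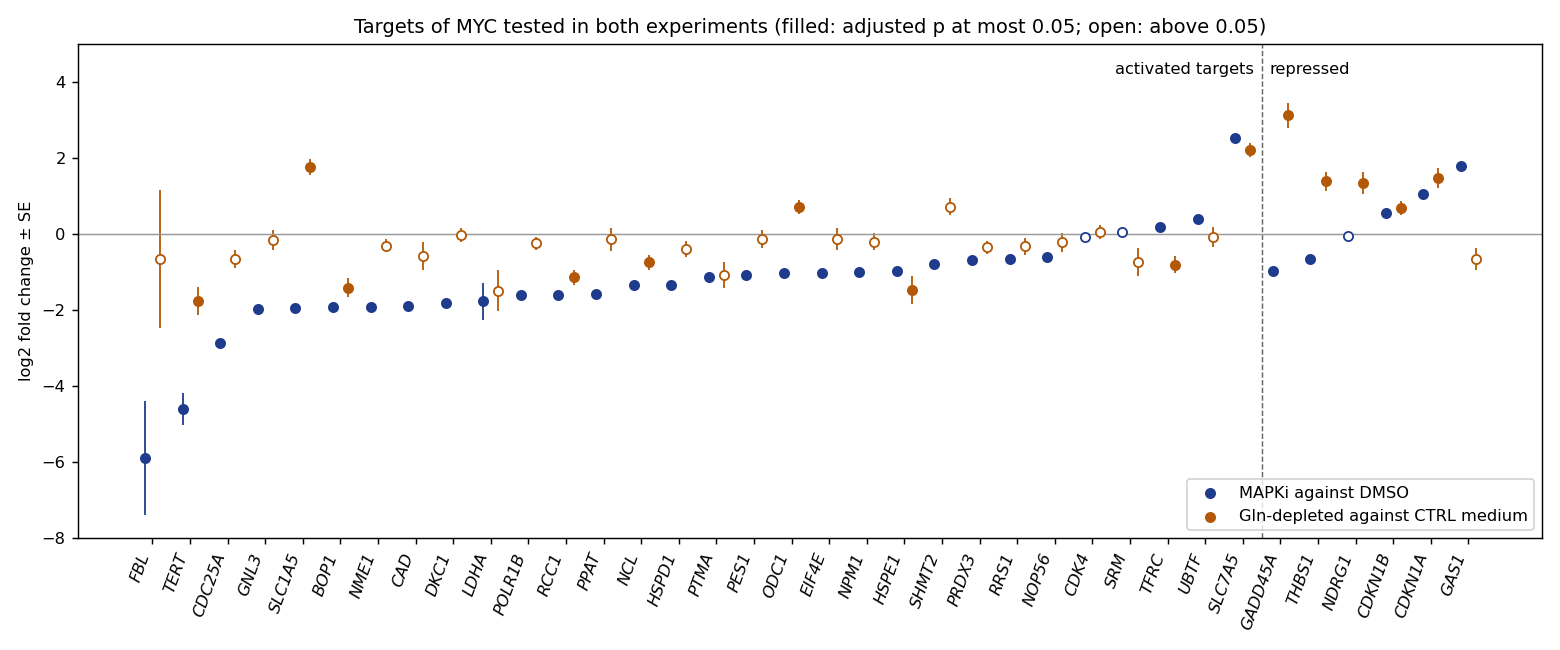
The log2 fold change (with SE) of each target of MYC tested in both experiments, ordered by the MAPKi value, with repressed targets right of the dashed line and filled points at an adjusted p of at most 0.05. SLC7A5 is above 2 in both experiments, and SLC1A5 and GADD45A are on opposite sides of 0.

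The genes whose levels followed each member most closely over the 12 libraries were found by the root mean square difference of log2 CPM, each experiment centred on its control group, among 10731 genes. For MYC these were GJB1 (0.30), POU3F2 (0.30) and GCNT1 (0.31), a looser match than that of any other member. MXD1 was followed by MAP1LC3B (0.083), an autophagy protein, DDIT4 (0.18), a stress-induced inhibitor of mTORC1, and TES (0.19). The nearest genes to MXD4 were DGLUCY (0.14), CTSF (0.15), a lysosomal protease, and FOXD3 (0.18), a neural crest transcription factor. For MXD3 they were EEF2KMT (0.14), NT5DC2 (0.16) and C20orf27 (0.16). MAX was followed by DESI1 (0.079), UBE2M (0.090) and DUS1L (0.092), MXI1 by SENP2 (0.10), CCDC25 (0.11) and RAB13 (0.12), MNT by NR1H2 (0.073), SDHC (0.087) and ABHD14B (0.097), and MGA by ABI1 (0.076), ELF2 (0.077) and BIRC6 (0.079).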

How the data were processed

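RNA-seq libraries of A375 cells were analysed from 1 table of raw read counts deposited by the authors, 12 columns for the 12 libraries (all used). The authors trimmed reads with fastp 0.20.1, aligned them to GRCh38.p13 with HISAT2 2.2.1 and counted reads on exons with htseq-count (HTSeq 0.13.5). Whether strand was used, and how reads shared by overlapping genes were treated, is not given in the sources used here, so overlapping genes may exchange reads. The labels describe cytoplasmic RNA from a Triton X-100 lysate, and the paper's sequencing methods total RNA. Ribosomal RNA was depleted.

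Symbols were matched to RefSeq (36524 genes by symbol and 513 by an older symbol, 2540 unmatched), and 5082 further copies of a gene were kept apart. Protein-coding genes whose normalized counts averaged 10 or more were tested (12593 in the MAPKi and 12512 in the Gln depletion experiment) with the quasi-likelihood method of edgeR 4.0.16 (R 4.3.3), with TMM factors from 0.934 to 1.079 and no covariate. A gene was called changed when its p against no change, adjusted over all genes tested by Benjamini-Hochberg, did not exceed 0.05, and regulated when the p against a 1.5-fold change did not. The latter limit follows the study's methods, which used DESeq2. The contrast between experiments was fitted over the 12 libraries. The SE was not estimated by the model itself. It was computed as the absolute log2FC divided by the square root of the F statistic of the test against no change. Exon lengths and coordinates came from GENCODE v44 (GRCh38). The share of MYC was compared by an exact permutation test. Scripts were tested on simulated data. Tables and figures were made in Python 3.11.15 with pandas 2.3.3, scipy 1.17.1, numpy 2.4.6 and matplotlib 3.10.9.

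Libraries of the same group differed beyond sampling noise (chi-square over degrees of freedom of 4.74 to 15.6 in the MAPKi experiment, and of 39.6 to 191 in the Gln depletion experiment), so that spread between replicates, more than counting, limits precision. Replicate numbers pair the Gln depletion libraries: the labels put replicate 1 in experimental batch 1 and replicates 2 and 3 in batch 2, and deviations from the group means correlated at 0.597, 0.459 and 0.394 for the same number across genes.

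The members and lists were chosen with earlier results of these data known. The genes named are the 8 members, MYCN, MYCL and the MLX genes, up to 3 rises and 3 falls per list and experiment that passed the test without overlap between groups, and the 3 nearest genes of each member. CD68, KRT5, CD3E, PTPRC, RING1, LDHA, EIF4A1, TRRAP, KAT2A, RYBP, FBXW7, STUB1 and PPP2R5A were named after their values were seen. Alternatives were DESeq2 1.42.0, DESeq2 size factors, upper-quartile or total-count scaling, other count filters, genes of every type, all 12 libraries in a single fit, the replicate number or the batch as a term, batch 2 alone, each library left out, and other lengths. Activated targets without further copies were added after the data were seen. A further gene of the list on MYC transcription and mRNA is not reported here.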

Additional observations from a re-analysis of the deposited data

Results flagged for a closer look

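The change of a gene in the MAPKi experiment was set against its change in the Gln depletion experiment, and the difference of the log2FC (MAPKi minus Gln depletion) was tested with edgeR over the 12 libraries. It passed for 3 members, MYC (-3.06, lower in 3 of 3 numbered pairs of each experiment), MXD1 (-1.57, higher in 3 of 3 pairs of each) and MXD4 (2.22, higher in 3 of 3 pairs with MAPKi and in 2 of 3 with Gln depletion), and for MLXIP (0.80, higher in 3 of 3 pairs with MAPKi and lower in 3 of 3 with Gln depletion). Among the lists, 5 of 12 MYC coactivators differed between the experiments, 4 of 10 SIN3 corepressor genes, 3 of 10 genes of the MGA PRC1.6 complex, 5 of 12 genes of MYC protein turnover and 3 of 4 genes of MYC mRNA and transcription. Of the targets, 17 of 31 activated and 4 of 6 repressed ones differed. These shares stand beside 40.5% of all genes tested in the contrast.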

How the results depend on the processing

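Of 400 recomputed values of members over all alternatives, 359 kept their direction and side of the threshold, 6 lost and 13 gained a call, and 22 changed sign. With MAPKi the calls of MYC, MXD1, MXD3, MXD4 and MNT were kept in all 15 alternatives, and that of MXD1 with Gln depletion in all 17. The cause of the other changes was not tested.

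A fit of all 12 libraries gave 3084 higher, 3236 lower and 1416 upregulated genes with MAPKi. For Gln depletion it gave 2377 higher and 2814 lower genes, 807 upregulated and 897 downregulated. The replicate block gave 3145, 2981, 1106 and 978 in that order, a term for the experimental batch 2920, 2691, 1019 and 871, and batch 2 alone 2229, 2124, 726 and 643. Scaling to total counts gave 1652 lower and 436 downregulated genes. With the block, 7700 genes differed between the experiments. Without a division by length, the share of MYC changed by -15.0 percentage points with MAPKi.

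Leaving out 1 library of the Gln depletion experiment gave 476 to 1328 higher and 267 to 1411 lower genes, 195 to 485 upregulated and 64 to 420 downregulated genes, with the fewest genes when Gln-depleted replicate 2 or 3 or CTRL medium replicate 2 or 3 was left out, and 1 to 2 changed members. The log2FC then ranged from -0.12 to 0.24 for MAX, -0.086 to 0.43 for MXD4, -0.15 to 0.087 for MNT, -0.050 to 0.22 for MGA and -0.43 to 0.23 for MYCL, and the difference between experiments from -0.29 to 0.038 for MAX and from -0.47 to 0.062 for MXI1. None of these values passed the test. With total counts the Gln depletion log2FC was -0.11 for MAX, -0.058 for MXD4 and -0.071 for MGA, and the difference for MAX was 0.0086. In batch 2 alone MAX gave -0.030. MNT gave 0.0055 with DESeq2 size factors, 0.014 with DESeq2 and 0.0059 with the replicate block.

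In the Gln depletion experiment the replicate block changed the call of MXD3 and of no other member, and between the experiments that of MNT. In the MAPKi experiment the labels also match MAPKi and DMSO libraries by number, but the pairing was weak. Correlations were 0.0739, 0.0544 and 0.0531 for the same number, each library correlating best with its own number. The replicate block there gave 5075 higher and 4981 lower genes and changed no call of a member.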

Other observations

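PVT1, a long non-coding RNA gene next to MYC on chromosome 8 (127794526 to 128187101, GRCh38, plus strand), was looked at after the values of MYC were seen, in a fit of genes of every type. It was at 7.21, 6.25 and 6.87 CPM with DMSO and at 2.53, 2.97 and 3.57 CPM with MAPKi. It fell by 1.17 on the log2 scale (SE 0.14, adjusted p = 0.00011, edgeR's quasi-likelihood test), a smaller change than that of MYC. In CTRL medium PVT1 was at 7.97, 8.31 and 8.23 CPM, and in Gln-depleted cells at 7.80, 12.2 and 10.9 CPM, where the groups overlapped (log2FC 0.30, SE 0.24, adjusted p = 0.42). The difference in log2FC between MYC and PVT1 was not tested.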
